A study of Macaca mulatta with 449 samples.

Results

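Hypothalamic transcription factors are the DNA-binding proteins that specify the ventral forebrain, the neuroendocrine neurons and the pituitary stalk during development, and several of them are still transcribed in the adult. The 8 listed ones were chosen here by symbol: SIM1, OTP, FEZF1, NKX2-1, SIX3, SIX6, RAX and EBF3. Rows of the gene count table with these symbols were found for 7 of the 8 listed genes, out of 30807 genes in all. SIX6 was matched to no row and was not analysed here. The Ensembl identifiers were ENSMMUG00000022285 for SIM1, ENSMMUG00000039760 for OTP, ENSMMUG00000021542 for FEZF1, ENSMMUG00000009641 for NKX2-1, ENSMMUG00000014824 for SIX3, ENSMMUG00000007583 for RAX and ENSMMUG00000011447 for EBF3.

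The study asked how transcriptomes differ between anatomical regions of the rhesus macaque (Macaca mulatta) brain. RNA of dissected sub-regions was sequenced in each of 8 healthy, untreated macaques from a single source, after depletion of ribosomal RNA. This gave 1 sample per sub-region and animal. The midbrain was left out, and the other 51 sub-regions were used here. The animals are called by their number in the sample labels. Animals 7 (male, 4 years), 8 (male, 3.8 years), 4 (female, 3.2 years) and 10 (female, 5 years) were the 4 young ones, and animals 2 and 3 (males, 10 years), 6 (female, 10 years) and 11 (female, 9.8 years) were the 4 mid-aged ones. Each sample was 1 small piece of dissected tissue, so the hypothalamus (HTHA) was sampled as 1 piece per animal and not as separate nuclei. For the tests, the 51 sub-regions were taken as 16 region groups: HTHA, the pituitary (PIT), substantia nigra (SN), ventral tegmental area (VTA), globus pallidus (GP), medulla oblongata (MO), pons (PON), thalamus (THA), amygdala (AMY), perirhinal with entorhinal cortex (PA), olfactory bulb (OB) and corpus callosum (CC), the striatum (STR, made of the nucleus accumbens ACb, caudate nucleus CN and putamen PUT), the hippocampus (HIP, with DG, CA1 and CA3), the cerebellum (CB, with CBC and CBV) and the 31 other cortical sub-regions.

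As background, SIM1 is a bHLH-PAS factor and OTP a homeodomain factor, and both are needed for the neuroendocrine neurons of the paraventricular and supraoptic nuclei that make oxytocin, vasopressin, thyrotropin-releasing hormone and corticotropin-releasing hormone. FEZF1 is a zinc-finger factor of the early forebrain that is known from the ventromedial hypothalamic nucleus. NKX2-1 is a homeodomain factor of the ventral hypothalamus, of the posterior pituitary and of the medial ganglionic eminence, the source of many interneurons of the striatum and cortex and of pallidal neurons. SIX3 and SIX6 are related homeodomain factors of the anterior forebrain, eye and pituitary, and SIX3 is also used by striatal neuron precursors. RAX is a homeodomain factor of the eye field, of hypothalamic tanycytes and of pituicytes, the glia of the posterior pituitary. EBF3 belongs to the COE family of helix-loop-helix factors, which act in neuronal differentiation and migration.

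Samples held 7784678 to 31083490 counts in total (median 10698602), and the 8 HTHA samples held 9057534 to 12359990 counts. At this depth most members were rare transcripts. A count above 1 was found in 17 samples for SIM1, 24 for OTP, 45 for FEZF1, 161 for NKX2-1, 131 for SIX3, 5 for RAX and 365 for EBF3. Levels are given as CPM, the count of a gene scaled by the TMM-adjusted library size, which compare 1 gene between samples and not genes with each other, since they are not divided by gene length. A group in which reads were absent has an upper limit of 3 counts over its libraries (for the 8 HTHA samples 0.0316 CPM), and this limit covers counting error only. In such bulk tissue, fewer cells of a type and less RNA per cell cannot be told apart.

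The hypothalamic label was checked with 12 hypothalamic peptide genes. Their mean log2(CPM + 1) was 3.62 to 5.79 in the 8 HTHA samples. Of these genes, PMCH, HCRT and NPVF were lowest in animal 11, at 21, 34 and 9 reads. The other 7 animals had 292 to 22658, 166 to 3991 and 27 to 995 reads. OXT and TRH of animal 11 lay within the range of the other 7. In cortex neuron genes, 1 HTHA library stood apart. In animal 6 the mean log2(CPM + 1) of 7 cortex neuron genes was 5.25, against 1.43 to 1.78 in the other 7 HTHA samples and 4.68 to 6.39 in cortical samples. SLC17A7, the vesicular glutamate transporter of cortical excitatory neurons, was at 479 CPM in HTHA of animal 6 and at 0.947 to 5.05 CPM in the other 7. The part of this in the members' levels was not tested, and the tests of HTHA against other groups and of age stage and sex in HTHA are also given without animal 6.

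SIM1, OTP, FEZF1, NKX2-1, SIX3 and EBF3 were all detected in the 8 HTHA samples, and RAX was in none of them. Against the mean of the other 15 region groups, 6 of the 7 members were higher in HTHA by edgeR's quasi-likelihood test with animal as a block (FDR < 0.05 and log2FC > 1). The same call was made for 6.82% of the 24938 genes tested. The fitted log2FC was 8.94 (SE 0.33) for SIM1, 9.23 (SE 0.24) for OTP and 10.08 (SE 0.20) for FEZF1. It was 5.93 (SE 0.32) for NKX2-1, 4.38 (SE 0.20) for SIX3 and 2.22 (SE 0.27) for EBF3, and the largest adjusted p of the 6 was 1.92e-11. These fitted values average log levels and depend on the prior count where a group has no reads. On the linear scale, the mean of the other 15 groups was 0.0502 CPM for SIM1, 0.122 CPM for OTP, 0.347 CPM for FEZF1, 0.575 CPM for NKX2-1, 2.73 CPM for SIX3 and 3.53 CPM for EBF3. Without animal 6 the same 6 genes were called, with log2FC of 2.31 for EBF3 to 10.19 for FEZF1. The HTHA means of the other 7 animals were 4.14 CPM for SIM1, 13.8 for OTP, 42.6 for FEZF1, 5.36 for NKX2-1, 5.87 for SIX3 and 5.42 for EBF3. Animal 6 was the lowest of the 8 for OTP, NKX2-1, SIX3 and EBF3.

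**Figure D1:**
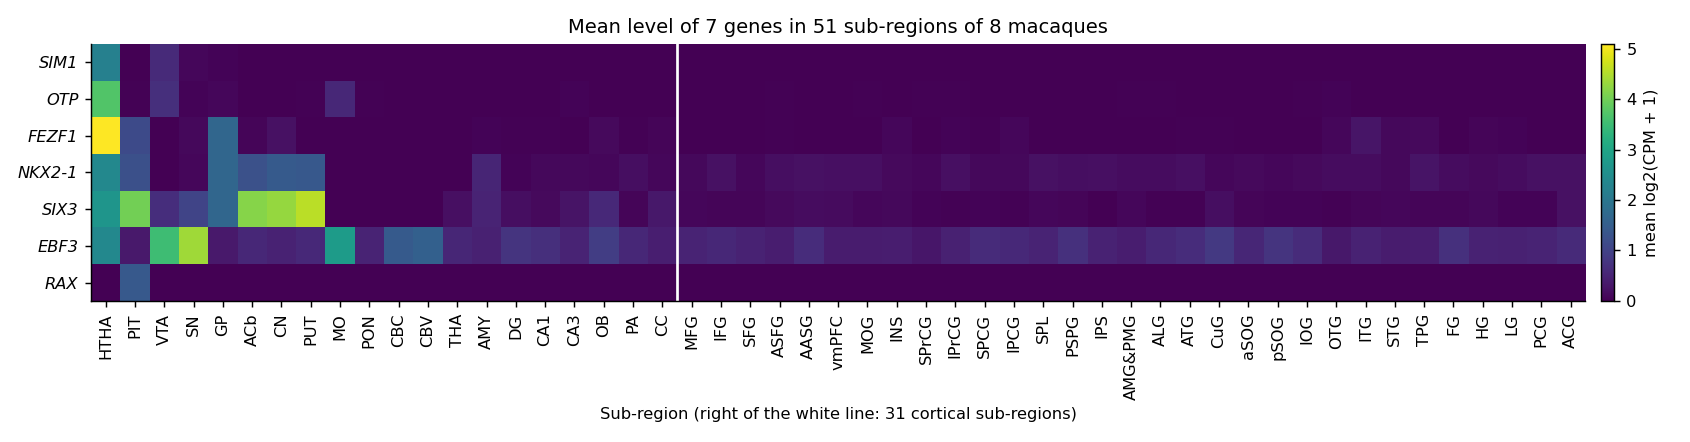
Mean log2(CPM + 1) over 8 animals of each of the 7 genes (rows) in each of the 51 sub-regions (columns), by the colour scale at the right; the 31 cortical sub-regions are right of the white line. SIM1, OTP and FEZF1 are bright in HTHA, SIX3 is brightest in the 3 striatal sub-regions and PIT, EBF3 is brightest in SN, and RAX is seen in PIT.

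The pairwise contrasts separated the members. SIM1, OTP and FEZF1 were each higher in HTHA than in every one of the other 15 groups. This was so for 49 genes of the table, or 0.196%. NKX2-1 was higher in HTHA than in 13 of the 15 groups, SIX3 than in 13 and EBF3 than in 12; a call against at least 12 groups was made for 1.35% of genes. SIX3 was lower in HTHA than in PIT and STR, and EBF3 was lower in HTHA than in MO, SN and VTA. RAX was lower in HTHA than in PIT. Of all genes, 13.3% were higher in PIT than in HTHA, 6.27% in STR, 5.12% in MO, 3.5% in VTA and 2.57% in SN by the same rule. HTHA held 83.8% of the mean CPM of SIM1 summed over the 51 sub-regions, 85.8% of that of OTP and 86.8% of that of FEZF1. For NKX2-1 it held 23.2%, the highest share of any sub-region. For SIX3 it held 6.22% and for EBF3 6.46%, the fifth and the fourth place.

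**Figure D2:**
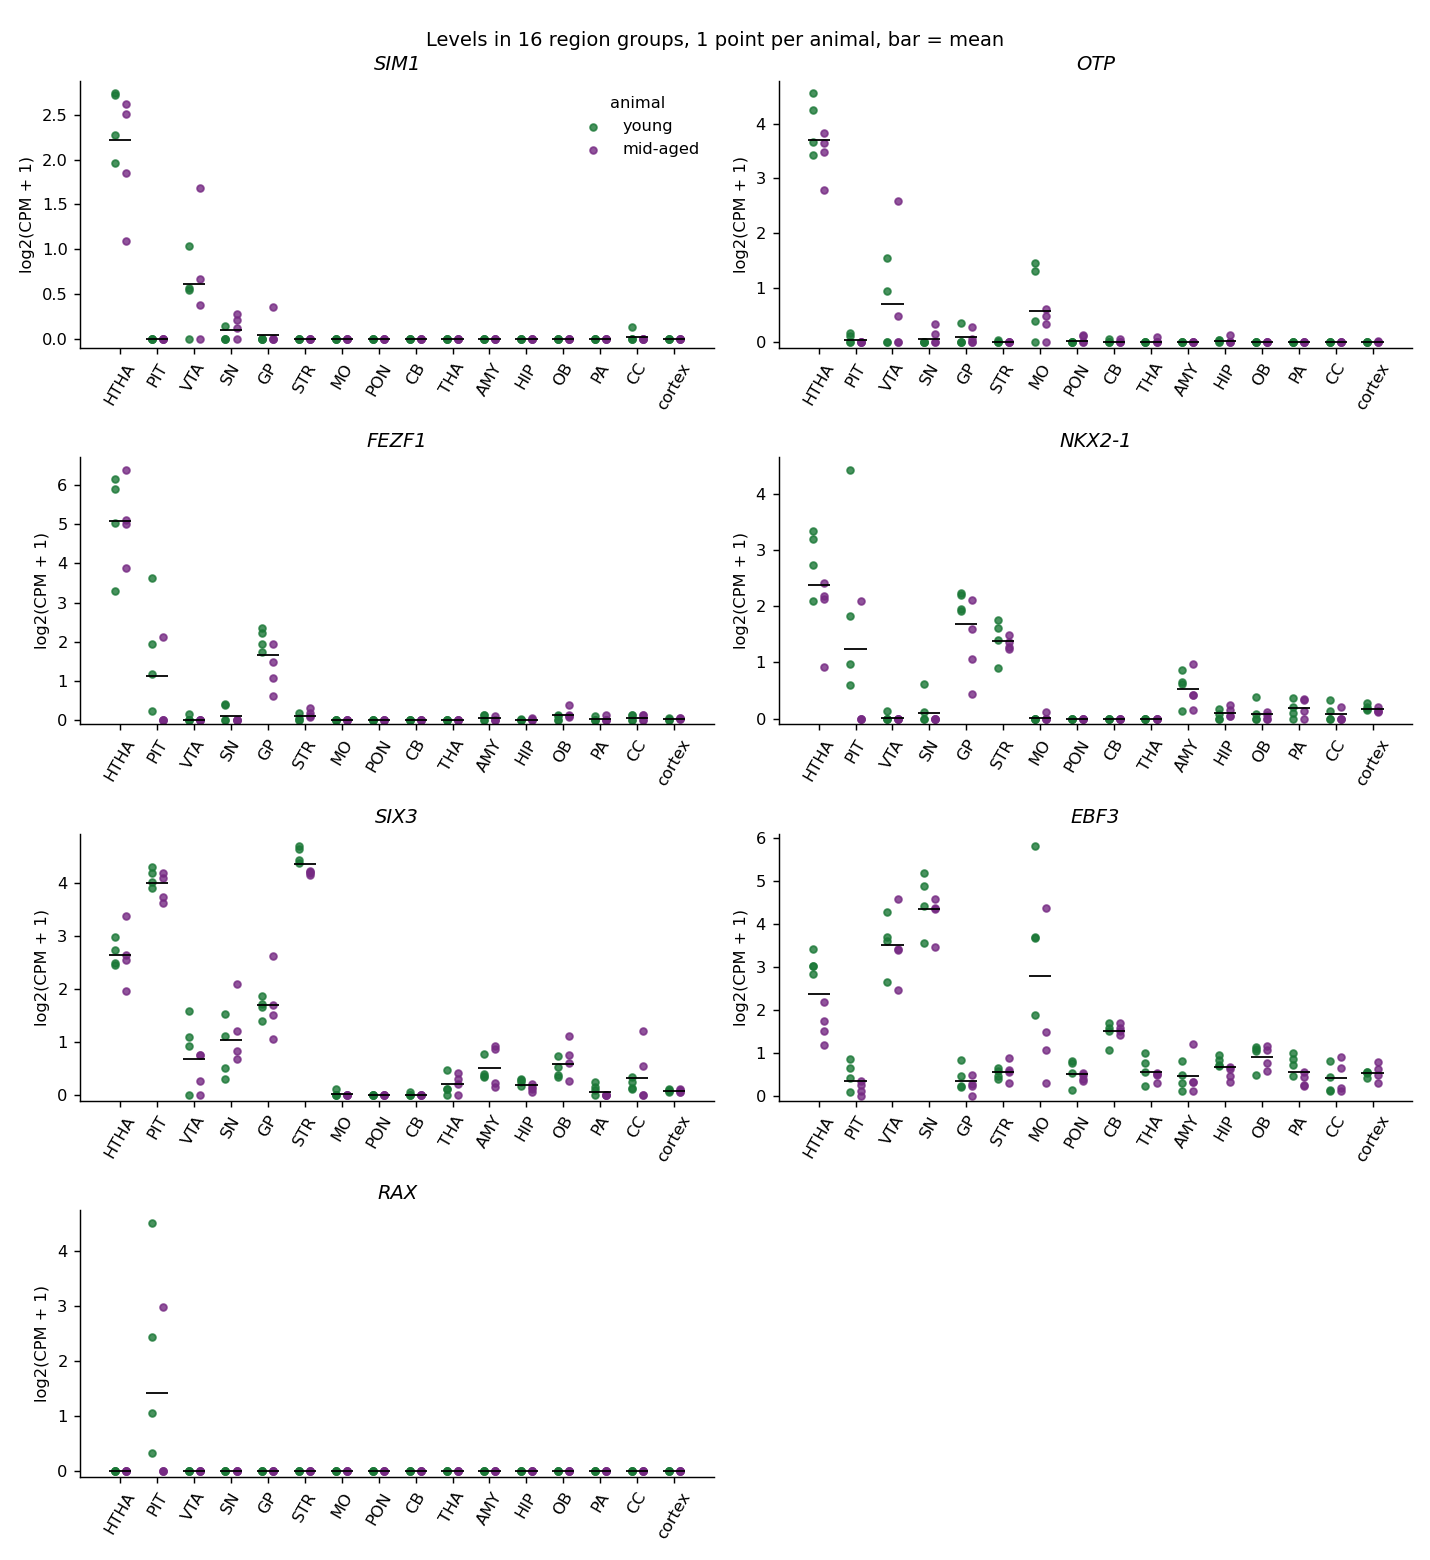
Levels of each of the 7 genes as log2(CPM + 1) in the 16 region groups, with 1 point per animal (green young, purple mid-aged) and a bar at the mean of the 8 values. The vertical scale differs between panels. SIM1 and OTP have points away from 0 outside HTHA mainly in VTA and, for OTP, MO; FEZF1 has them in PIT and GP.

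SIM1 ranged from 1.12 to 5.68 CPM in HTHA, with a median of 4.27 and a mean of 3.94 ± 1.62 (SD, n = 8). By animal it was 4.69 CPM in 2, 1.12 in 3, 3.85 in 4, 2.60 in 6, 5.57 in 7, 5.68 in 8, 2.90 in 10 and 5.13 in 11. Animal 3 was the lowest. Only VTA had more than 3 reads in any single sample outside HTHA: 0 to 2.21 CPM with a median of 0.469, and 0 in animals 7 and 11. Of the 400 samples outside HTHA, 1 was at or above the lowest HTHA sample, the VTA sample of animal 2 at 2.21 CPM (19 reads). Within each animal, however, HTHA was above VTA. The HTHA to VTA difference was a log2FC of 2.72 (SE 0.35, FDR 9.17e-09). VTA was in turn higher than SN by a log2FC of 3.11 (SE 0.78, FDR 0.00252), SN having 6 reads in all. In 10 groups SIM1 had no read, which put HTHA at least 105-fold to at least 336-fold higher, depending on the depth of the group. In the 31 cortical sub-regions together a single SIM1 read was counted.

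OTP was at 5.90 to 22.4 CPM in HTHA, with a median of 11.6 and a mean of 12.8 ± 5.15 (SD, n = 8). By animal it was 13.2 CPM in 2, 10.2 in 3, 11.6 in 4, 5.90 in 6, 17.9 in 7, 22.4 in 8, 9.68 in 10 and 11.5 in 11. None of the 400 other samples reached the lowest HTHA sample, so the ranges did not overlap. The nearest was the VTA sample of animal 11 at 4.96 CPM (55 reads). OTP in VTA was at 0 in 4 animals and at 0.402, 0.912, 1.93 and 4.96 CPM in the other 4. In MO it lay between 0 and 1.74 CPM, with a mean of 0.590. HTHA was above VTA by a log2FC of 3.75 (SE 0.32, FDR 1.23e-18) and by 4.90 (SE 0.37) without animal 11, and above MO by 4.47 (SE 0.34, FDR 1.6e-21). VTA and MO did not differ beyond their spread (log2FC 0.72, SE 0.48, FDR 0.458). MO was above GP (log2FC 3.25, SE 0.85, FDR 0.00146), where 6 reads were counted. AMY, CC, OB and PA had no OTP read, and HTHA was at least 357-fold to at least 460-fold higher than these 4 groups.

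In the VTA the SIM1 and OTP reads came from partly different animals. SIM1 was highest in animal 2, where OTP was at 0, and OTP was highest in animal 11, where SIM1 was at 0. The oxytocin gene OXT had 0 to 5 reads in each VTA sample, against 1880 to 24358 in each HTHA sample. PMCH, the precursor of melanin-concentrating hormone, had 7 to 17 reads in each VTA sample, with 15 in VTA and 21 in HTHA of animal 11. TRH had 0 to 61 reads in each VTA sample. The part of hypothalamic tissue in the VTA levels was not tested.

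FEZF1 varied widely between the HTHA samples: 8.81 to 82.4 CPM with a median of 32.7 and a mean of 41.2 ± 26.3 (SD, n = 8). It was 82.4 CPM in animal 2, 33.7 in 3, 58.3 in 4, 31.1 in 6, 31.7 in 7, 69.6 in 8, 8.81 in 10 and 13.7 in 11. Animals 10 and 11, a young and a mid-aged female, were the lowest pair. Outside HTHA, FEZF1 was found in GP in every animal, at 0.545 to 4.07 CPM (mean 2.41 ± 1.22, SD, n = 8), and in PIT at 0 to 11.4 CPM. Outside HTHA, GP also had the highest mean of OXT (17.9 CPM) and of PMCH (2.23 CPM), and of none of the other peptide genes. The part of hypothalamic tissue in the GP levels was not tested. HTHA was above GP by a log2FC of 3.93 (SE 0.29, FDR 1.73e-23) and above PIT by 4.17 (SE 0.29, FDR 3.81e-26). GP and PIT did not differ beyond their spread (FDR 0.591). CB, MO, PON and THA had no FEZF1 read, and HTHA was at least 1100-fold to at least 2754-fold higher.

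NKX2-1 was not particular to HTHA. It was 0.90 to 9.14 CPM there, with a median of 3.95 and a mean of 4.80 ± 2.73 (SD, n = 8). By animal it was 3.403 CPM in 2, 3.56 in 3, 8.15 in 4, 0.90 in 6, 5.65 in 7, 9.14 in 8, 3.29 in 10 and 4.34 in 11. Without animal 6, the lowest, the mean was 5.36 ± 2.40 (SD, n = 7). Then came PIT at 0 to 20.6 CPM (mean 3.48), GP at 0.360 to 3.73 CPM (mean 2.47), STR at 0.872 to 2.39 CPM (mean 1.64) and AMY at 0.104 to 0.964 CPM (mean 0.473). In all, 34 of the 400 other samples were at or above the lowest HTHA sample, and they were striatal, pallidal, pituitary and amygdala samples. That lowest sample was the one of animal 6. The lowest of the other 7 HTHA samples, 3.29 CPM, was above the STR and AMY ranges given here. It was below the highest GP and PIT values.

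HTHA exceeded STR in NKX2-1 by a log2FC of 1.46 (SE 0.30, FDR 3.06e-05), and STR exceeded AMY by 1.80 (SE 0.48, FDR 0.00122). HTHA and GP differed by 0.93 (SE 0.32, FDR 0.013) and HTHA and PIT by 0.82 (SE 0.31, FDR 0.02), both short of the fold required for a call. Of all contrasts of a member with HTHA, this GP contrast was the only one whose call changed without animal 6. It was called without animal 6 (log2FC 1.18, FDR 0.00174) and without animal 10 (1.03, FDR 0.0181). The PIT contrast was called without animal 8 (log2FC 1.96, FDR 1.94e-07), which alone held 297 of the 393 PIT reads. GP and STR did not differ beyond their spread (FDR 0.198). In CB, PON and THA no NKX2-1 read was found, and HTHA was at least 128.4-fold to at least 321-fold higher. In the cortex it was at a low level throughout, with means of 0.0647 to 0.216 CPM in the 31 sub-regions and 70 cortical samples at 0.

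SIX3 was highest in the striatum. STR was at 16.7 to 24.8 CPM, with a median of 18.8 and a mean of 19.7 ± 3.12 (SD, n = 8). PIT followed at 11.3 to 18.7 CPM (median 15.6, mean 15.2 ± 2.54, SD, n = 8), and HTHA at 2.90 to 9.32 CPM (median 5.05, mean 5.50 ± 1.91, SD, n = 8). These ranges show STR and PIT overlapping each other and neither overlapping HTHA. By animal, SIX3 in HTHA was 5.24 CPM in 2, 4.87 in 3, 4.62 in 4, 2.90 in 6, 4.49 in 7, 6.93 in 8, 5.62 in 10 and 9.32 in 11. HTHA was below STR by a log2FC of -1.88 (SE 0.20, FDR 7.07e-15), a 3.69-fold higher level in STR, and below PIT by -1.47 (SE 0.20, FDR 1.94e-10). STR and PIT differed by 0.42 (SE 0.18, FDR 0.0381), short of the fold for a call.

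Below HTHA stood GP with a SIX3 mean of 2.38 CPM and SN with 1.21 CPM. HTHA was above GP by a log2FC of 1.25 (SE 0.24, FDR 4.38e-06). The GP sample of animal 3 was at 5.12 CPM and the other 7 were at 1.08 to 2.66 CPM. In that sample the mean log2(CPM + 1) of 7 striatum neuron genes was 6.36, against 3.58 to 4.65 in the other 7 GP samples, and its part in the SIX3 level was not tested. Without animal 3 the HTHA to GP log2FC was 1.46 (SE 0.23, FDR 6.41e-08). PON had no SIX3 read, and in the cortex 147 samples were at 0.

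EBF3 was highest in the ventral midbrain and medulla. SN was at 10.1 to 35.7 CPM, with a median of 20.0 and a mean of 20.97 ± 8.49 (SD, n = 8), and VTA at 4.51 to 22.8 CPM, with a median of 10.5 and a mean of 11.7 ± 6.22. MO varied most, with 55.1 CPM in animal 4, 19.9 in 11, 12.04 in 10, 11.8 in 7, 2.69 in 8, 1.81 in 2, 1.11 in 3 and 0.242 in 6. The mean of these 8 MO values, 13.1 CPM, was 7.08 without animal 4, and their median was 7.25.

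In HTHA, EBF3 was 1.3 to 9.70 CPM, with a median of 4.86 and a mean of 4.90 ± 3.06 (SD, n = 8). It was below SN by a log2FC of -2.17 (SE 0.33, FDR 2.72e-08), below VTA by -1.33 (SE 0.34, FDR 0.000892) and below MO by -1.22 (SE 0.34, FDR 0.00229). The last of these calls was lost without animal 4 (-0.50, FDR 0.280) and without animal 11 (-0.94, FDR 0.0432). The VTA call was lost without animal 2 (-0.95, FDR 0.0351). SN, VTA and MO were not called different from each other: SN exceeded VTA by a log2FC of 0.84 (FDR 0.0425) and MO by 0.95 (FDR 0.0151). HTHA was above CB (mean 1.87 CPM) by 1.24 (SE 0.36, FDR 0.0023), a call lost without animal 7 (0.98). EBF3 was the member found nearly everywhere, with only 6 cortical samples at 0 and cortical means of 0.272 to 0.845 CPM.

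RAX was a pituitary transcript in these samples. PIT held 482 of its 484 reads, and the other 2 reads were in 2 cortical samples. HTHA had no RAX read, so that PIT, with a mean of 4.34 ± 7.59 CPM (SD, n = 8), was at least 137-fold higher, and at least 49.2-fold higher without animal 8. Its PIT level was uneven: 22.03 CPM in animal 8, 6.89 in 3, 4.44 in 7, 1.09 in 10, 0.261 in 4 and 0 in 2, 6 and 11. So 3 pituitaries had no RAX read, and animal 8 alone held 318 of the 482.

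The NKX2-1 and FEZF1 reads of the pituitary came from the same 5 animals. NKX2-1 had 297 reads in animal 8, 35 in 3, 40 in 7, 15 in 10, 6 in 4 and 0 in 2, 6 and 11. FEZF1 had 164 reads in animal 8, 36 in 3, 45 in 7, 20 in 10, 2 in 4 and 0 in 2, 6 and 11. SIX3 did not follow this pattern: it was 17.2 CPM in animal 2, 12.4 in 6 and 11.3 in 11, and 14.003 to 18.7 CPM in the other 5.

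Some other transcripts moved with the same animals, in part. OXT had 331 PIT reads in animal 8, 65 in 3, 38 in 7, 16 in 10 and in 4, 1 in 11 and 0 in 2 and 6. TRH had 482 PIT reads in animal 8, 111 in 3, 75 in 4 and 24 in 7. It had 3 in animal 10, against 8 in 2, 4 in 11 and 0 in 6. The mean log2(CPM + 1) of 5 astrocyte genes was 3.36 to 4.25 in the 5 animals with RAX reads and 1.85 to 2.40 in the 3 without. Among these 5 genes, the defining markers GFAP (0.845 to 31.7 CPM) and AQP4 (1.37 to 35.1 CPM) were detected in all 8 pituitaries. AQP4 was at 9.05 CPM or more in the 5 and at 2.70 CPM or less in the 3. GFAP overlapped between them, with 2.36 CPM in animal 8, the highest in RAX, and 3.10 CPM in animal 11. Anterior pituitary hormone and receptor genes were at 8.48 to 9.88 in the 5 and at 8.36 to 9.86 in the 3, so the ranges of this list overlapped. PRL, the prolactin gene of that list, did not overlap. PRL was at 80448 CPM in animal 2, 223679 in 11 and 333075 in 6, and at 24760 to 42835 CPM in the 5 with RAX reads. GNRHR, a receptor gene of that list, overlapped and leaned the other way. Its level was 11.9 to 33.6 CPM in the 3 without RAX reads and 28.7 to 73.9 CPM in the 5. The share of posterior lobe in each piece was not tested. Without animal 8 the mean PIT level was 1.04 CPM for NKX2-1 and 1.10 CPM for FEZF1.

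**Figure D3:**
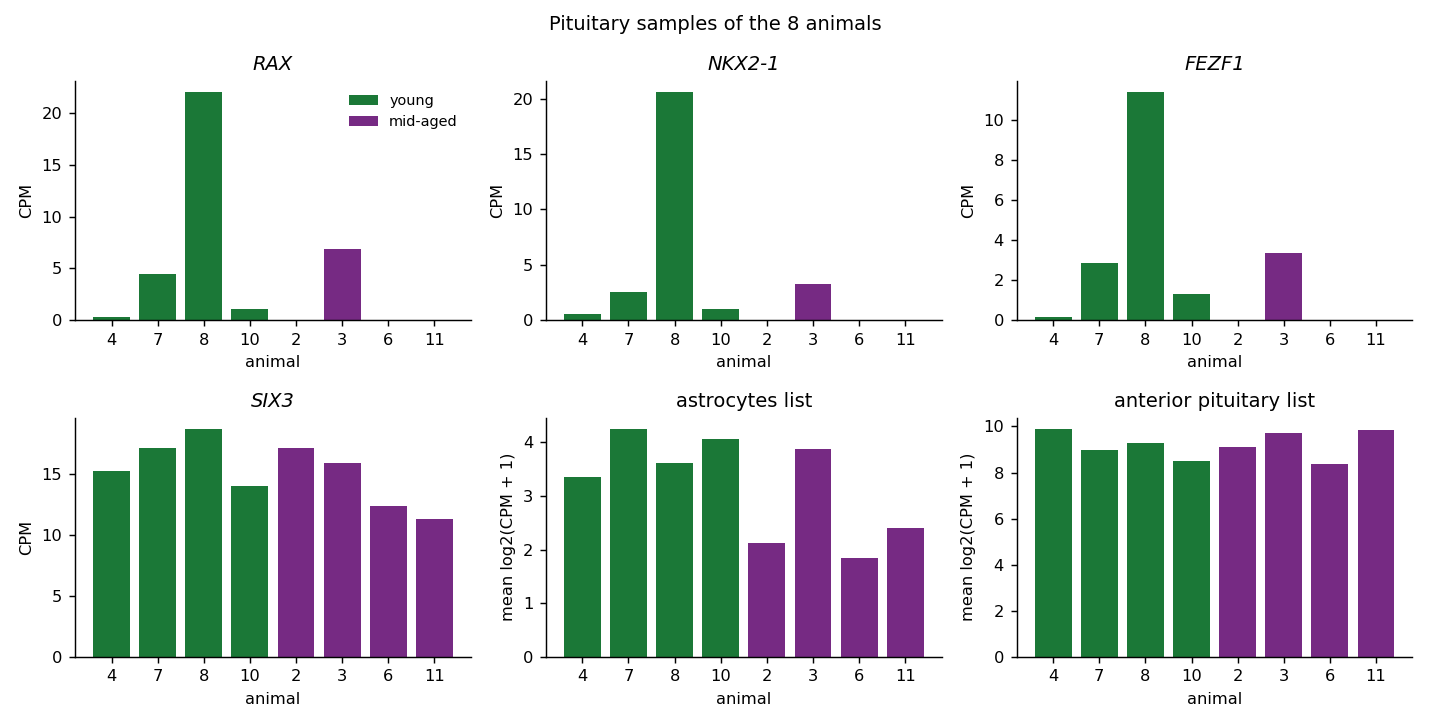
Values in the 8 pituitary samples, 1 bar per animal (green young, purple mid-aged): CPM of RAX, NKX2-1, FEZF1 and SIX3, and mean log2(CPM + 1) of 5 astrocyte genes and of 7 anterior pituitary genes. RAX, NKX2-1 and FEZF1 have bars in animals 3, 4, 7, 8 and 10 and none in 2, 6 and 11, while SIX3 has a bar in all 8.

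Within HTHA the members did not keep 1 ratio from animal to animal. Counts of FEZF1 were 6.27 times those of OTP in animal 2, 5.27 in 6, 5.02 in 4, 3.30 in 3, 3.11 in 8, 1.77 in 7, 1.18 in 11 and 0.91 in 10. OTP over SIM1 was steadier, at 2.25 to 3.95 in 7 animals and at 9.08 in animal 3, which had 12 SIM1 reads. EBF3 over OTP ran from 0.14 in animal 2 to 0.74 in animal 10. NR5A1, which encodes the nuclear receptor SF-1 of the ventromedial nucleus, was 15.1 CPM in animal 8, 13.2 in 2, 12.1 in 4, 7.20 in 6, 1.59 in 7, 0.936 in 3, 0.387 in 10 and 0.158 in 11. The 3 animals highest in NR5A1 were the 3 highest in FEZF1, and animals 10 and 11 were the lowest pair in both. PMCH, a transcript of lateral hypothalamic neurons, ran from 1.66 CPM in animal 11 to 1640 CPM in animal 7. Which nuclei each piece held was not tested.

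**Figure D4:**
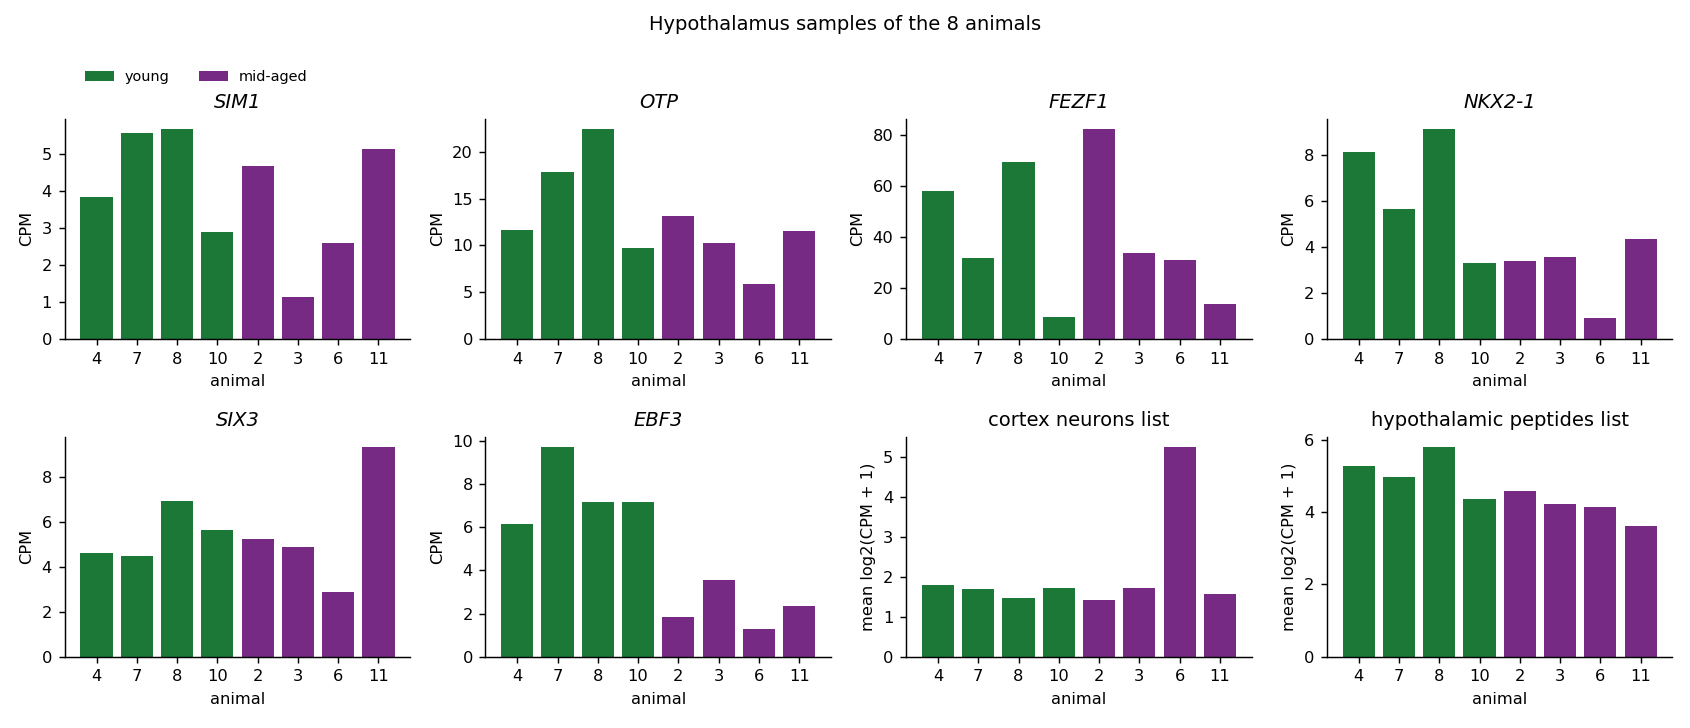
Values in the 8 hypothalamus samples, 1 bar per animal (green young, purple mid-aged): CPM of SIM1, OTP, FEZF1, NKX2-1, SIX3 and EBF3, and mean log2(CPM + 1) of 7 cortex neuron genes and of 12 hypothalamic peptide genes. EBF3 is higher in each young animal than in each mid-aged one, and the cortex neuron list is high in animal 6 alone.

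Sub-regions of 1 structure were compared for the members that passed the detection rule there (a count above 1 in at least 3 of the samples fitted). In STR, 2 of the 4 tested members differed between ACb, CN and PUT at FDR < 0.05, where 46.5% of all genes did. FEZF1 was at 0.188 CPM in CN and 0.0116 CPM in PUT (FDR 0.0253), a call that rests on 21 reads over all STR samples. SIX3 was at 17.4 CPM in ACb and 23.1 CPM in PUT (FDR 0.0289), and this call was lost without the animal block (FDR 0.123). NKX2-1 (1.47 to 1.81 CPM, FDR 0.435) and EBF3 (FDR 0.758) were not called. In HIP none of the 3 tested members was called by edgeR (25.7% of genes were), nor was EBF3 in CB (1.80 against 1.98 CPM, FDR 0.751, 0.73% of genes). None of these 4 tests had an unadjusted p below 0.05, and none was called under any other setting that tested it, DESeq2 included.

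Over the 31 cortical sub-regions 3 of the 4 tested members differed, against 57.8% of all genes. FEZF1 was highest in the inferior temporal gyrus at 0.242 CPM, from 0 to 7 reads per sample (FDR 7.92e-06). EBF3 ran from 0.272 CPM in the occipito-temporal gyrus to 0.845 CPM in the cuneus gyrus (FDR 7.67e-05). SIX3 was highest in the anterior cingulate gyrus at 0.191 CPM (FDR 0.0388, and 0.106 without the block), and NKX2-1 was not called (FDR 0.487). All of these cortical levels rest on few reads.

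The genes whose mean log2(CPM + 1) over the 51 sub-regions was most like each member were ranked among 13202 genes with a mean of at least 1 CPM in some sub-region. The 51 means come from the same 8 animals, and many are close to 0 for the rarer members, so the coefficients are given as a description. SIM1 was most like OTP (Pearson's r = 0.984), then PMCH (0.959) and FOXB2 (0.938), a forkhead factor. OTP was most like SIM1, then FOXB2 (0.978) and PMCH (0.967). FEZF1 was most like OXT (0.993), PMCH (0.940) and NKX2-4 (0.911), a relative of NKX2-1. All of these were highest in HTHA.

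NKX2-1 was most like ISL1 (0.860), SIX3 (0.834) and LHX8 (0.778); ISL1 and LHX8 are LIM homeodomain factors of striatal and cholinergic neurons. SIX3 was most like ISL1 (0.956), MYO3A (0.917) and RGS9 (0.903), the last a regulator of G-protein signalling in striatal neurons. EBF3 was most like SLC18A2 (0.921), the vesicular monoamine transporter, then PAX8 (0.886) and RTL1 (0.886). RAX was most like RBBP8NL, TNS4 and mml-mir-429, all highest in PIT. Among the members themselves, SIM1, OTP and FEZF1 had r of 0.897 to 0.984 with each other over the 51 sub-regions, NKX2-1 had 0.834 with SIX3, and EBF3 had at most 0.432 with any other.

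The other hypothalamic transcription factors of a list of 28 genes were compared in the same way. Rows were found for 19 of them, and 13 were higher in HTHA than the mean of the other 15 groups, 0 were lower and 6 were not called. The same call was made for 6.82% of all genes, for 3 of 8 thalamus neuron genes and for 2 of 7 cortex neuron genes. It averages log levels, so a called gene can be higher in a single other group. Of the 13, only HMX3 and NKX2-4 were called higher in HTHA than in each of the 15 groups. Without animal 6 the count was again 13 higher and 0 lower. The median difference in mean log2(CPM + 1) was 0.866 over these 19, 2.01 over the 7 members and -0.00718 over all genes. HMX3, a homeodomain factor of hypothalamic precursors, was at 5.69 ± 2.87 CPM (SD, n = 8) in HTHA and at most 1.77 CPM elsewhere, in MO. ISL1 was at 11.9 ± 3.56 CPM in HTHA and 10.3 CPM in STR. NR5A1 was at 6.33 ± 6.35 CPM in HTHA and 38.5 CPM in PIT. LHX8 was at 5.31 ± 12.1 CPM in HTHA, where animal 11 had 35.1 CPM and the other 7 had 0 to 3.87 CPM.

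Of 16 hypothalamic peptide genes, 12 were matched to a row by symbol. All 12 were higher in HTHA than the mean of the other groups, as were 12 without animal 6. With all animals this call was made for 6.82% of all genes. Their median difference in mean log2(CPM + 1) was 2.97. OXT was at 793 ± 538 CPM (SD, n = 8), PMCH at 651 ± 681, HCRT, the precursor of the orexins, at 147 ± 120, TRH at 94.0 ± 32.7 and NPVF, which encodes RFamide peptides, at 29.8 ± 28.6. The peptides known as products of SIM1 and OTP neurons were thus not equally restricted: TRH also reached 83.7 CPM in THA and CRH 345 CPM in MO, where SIM1 had no read and OTP was at 0.590 CPM. Vasopressin was not analysed here.

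Age stage was tested as mid-aged against young within each region group, with sex as a covariate. None of the 48 tests of a member in a group where it was detected was called by edgeR (FDR < 0.1 and an absolute log2FC above 1). At an unadjusted p below 0.05 there were 8, and DESeq2 called 1. Of all genes, 398 of 17817 (AMY) to 2183 of 17608 (THA) had an unadjusted edgeR p below 0.05 within a group. In HTHA it was 517 of 18195. Over all genes and the 16 groups, edgeR called 0.022% of tests, and within HTHA 0.0055%, or 1 of 18195 genes.

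The largest of these age differences in HTHA was that of EBF3. It was 6.15 CPM in animal 4, 7.15 in 8, 7.16 in 10 and 9.70 in 7, the 4 young ones, and 1.3 in 6, 1.84 in 2, 2.37 in 11 and 3.56 in 3, the 4 mid-aged ones. All 4 young animals were above all 4 mid-aged ones, with means of 7.54 ± 1.51 and 2.27 ± 0.964 CPM (SD, n = 4 each). The ranges of the age groups did not overlap for 1.92% of all genes in HTHA. The log2FC was -1.71 (SE 0.32), with an edgeR adjusted p of 0.999 and a DESeq2 adjusted p of 0.0051. It stayed between -1.94 and -1.56 when any 1 animal was left out, -1.56 being without animal 6. The study itself listed EBF3 for age on these samples, so this is not independent evidence.

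EBF3 was not called for age stage by edgeR in any region group. In SN the young animals had 23.8 ± 10.7 CPM and the mid-aged ones 18.1 ± 5.58 CPM (FDR 0.653). In VTA it was 11.8 ± 5.39 and 11.6 ± 7.82 CPM, and in MO 20.4 ± 23.5 and 5.76 ± 9.43 CPM (log2FC -1.99, SE 0.93, FDR 0.463). The age difference of EBF3 in HTHA was set against that in the other 15 groups by an interaction term, which was -1.34 (SE 0.55) with an edgeR FDR of 0.572. This term was called for 0.561% of genes and for none of the members. Of the other members in HTHA, NKX2-1 had a log2FC of -1.07 (SE 0.45), OTP -0.52 (SE 0.26), SIM1 -0.36 (SE 0.45), FEZF1 -0.18 (SE 0.55) and SIX3 0.07 (SE 0.37) for age, all with an adjusted p of 0.999. Without animal 6 they were -0.79 for NKX2-1, -0.41 for OTP, -0.28 for SIM1, -0.32 for FEZF1 and 0.29 for SIX3, and the EBF3 interaction was -1.24 (SE 0.59); none was called.

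**Figure D5:**
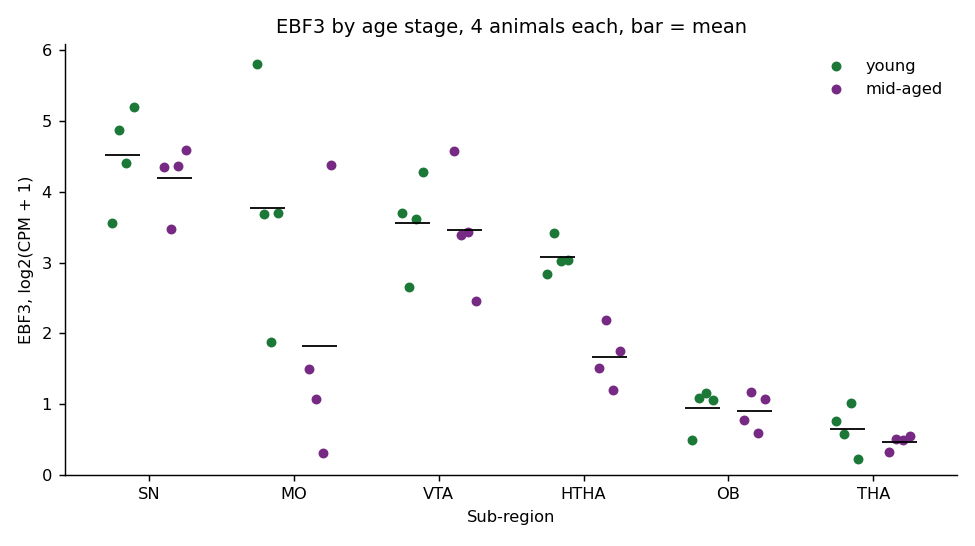
EBF3 as log2(CPM + 1) in 6 sub-regions, 1 point per animal, young (green) beside mid-aged (purple), 4 animals each, with a bar at the mean. The points of the age groups overlap in SN, MO, VTA, OB and THA and do not overlap in HTHA.

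Over the 48 tested pairs of a member and a group, the age groups did not overlap in 3, where 3.72% of such tests over all genes had no overlap. They were EBF3 in HTHA, EBF3 in HIP (young 0.757 ± 0.148 CPM, mid-aged 0.452 ± 0.159 CPM) and SIX3 in STR. SIX3 in STR averaged 22.2 ± 2.47 CPM among the young animals against 17.2 ± 0.440 CPM among the mid-aged, a log2FC of -0.35 (SE 0.13, FDR 0.80). This difference was under the fold required for a call.

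Sex was tested as female against male, with age stage as a covariate. No member was called by edgeR in any of its 48 tests, with 6 at an unadjusted p below 0.05 and 2 called by DESeq2. Of all genes, 333 of 17727 (SN) to 3599 of 18215 (PIT) had an unadjusted edgeR p below 0.05 within a group. In HTHA it was 491 of 18195. By edgeR, 0.0902% of tests over all genes and groups were called, and 0.0824% in HTHA. In HTHA the log2FC was -0.67 (SE 0.26) for OTP and -0.98 (SE 0.56) for FEZF1, both with an FDR of 0.951. Without animal 6 these were -0.54 (SE 0.26) and -1.10 (SE 0.67), and neither was called. The 2 DESeq2 calls were RAX (log2FC -5.79, FDR 0.0653) and NKX2-1 (-5.03, FDR 0.0758) in PIT, where the male animal 8 held most reads. For the sexes, 1 of the 48 pairs did not overlap, against 2.09% of tests over all genes: SIX3 in PIT was 13.2 ± 1.73 CPM in females and 17.2 ± 1.14 CPM in males (SD, n = 4 each, FDR 0.265).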

How the data were processed

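The deposited values were whole-number counts of reads per gene, without normalization, in 1 table of 30807 genes and 408 samples. By the methods and the submitters' processing notes, the authors removed ribosomal RNA (Ribo-Zero Gold), made directional libraries, checked reads with FastQC 0.11.4, trimmed them with Trim Galore 0.4.4, mapped them to Mmul 8.0.1 with HISAT2 2.0.5 and counted them on Ensembl 91 genes with HTSeq 0.6.1. How HTSeq treated strand and overlapping genes is not given in the sources used here, so reads of overlapping or antisense genes may be shared. Symbols were matched to 17572 genes by a reference table of gene IDs. The 8 midbrain samples and the 33 chromatin accessibility samples were not used here.

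Counts of a region group were summed within each animal, giving 128 summed samples. The tests were those of edgeR 4.0.16 with limma 3.58.1 and R 4.3.3: TMM normalization, genes over 1 count in 3 or more of the samples fitted, quasi-likelihood test, and Benjamini-Hochberg adjustment over all genes tested (FDR). Region tests had the animal as a block and were called at FDR < 0.05 and an absolute log2FC above 1 (within a structure, FDR < 0.05 of an F test over sub-regions). Tests of age stage and sex were called at FDR < 0.1 and an absolute log2FC above 1. The SE of a log2FC is its size divided by the square root of F. Replicates were separate animals, and samples of 1 animal deviated together (mean correlation of deviations between region groups 0.317 to 0.472 in the 8 animals). No 2 samples held identical counts. Fits were tested on simulated data. Tables and figures were made with Python 3.11.15, numpy 2.4.6, pandas 2.3.3, scipy 1.17.1 and matplotlib 3.10.9.

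The members and gene lists were chosen with earlier results of these data known. All members are named, with the 3 genes most like each over sub-regions and, from 2 lists (other hypothalamic transcription factors, peptides), the 5 with the largest log2FC, except for an item that is not reported here. Other genes (SLC17A7, CRH, PRL, GNRHR, GFAP, AQP4) were named after their values were seen. Alternatives were DESeq2 1.42.0, its size factors, filterByExpr, no block, no covariate, sub-regions fitted separately and each animal left out; the older edgeR dispersion (legacy) was added after seeing the data.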

Additional observations from a re-analysis of the deposited data

Results flagged for a closer look

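Among 33 groups of 8 samples of a member with a mean of at least 1 CPM, 6 had 1 sample far from the other 7 by Dixon's criterion. Its rate of about 1 in 20 groups by chance assumes independent, normally distributed values. These are skewed low counts, some at 0, so the number flagged cannot be set against that rate. Of the 6, 3 were the PIT sample of animal 8. There RAX was at 22.03 CPM (others 0 to 6.89), NKX2-1 at 20.6 CPM (others 0 to 3.26) and FEZF1 at 11.4 CPM (others 0 to 3.35). OTP was at 4.96 CPM in the VTA sample of animal 11, with the other 7 at 0 to 1.93 CPM. SIX3 was at 5.12 CPM in the GP sample of animal 3, with the others at 1.08 to 2.66 CPM. EBF3 was at 55.1 CPM in the MO sample of animal 4, with the others at 0.242 to 19.9 CPM.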

How the results depend on the processing

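The 6 members called higher in HTHA than the mean of the other groups, and the number of groups each exceeded, held under DESeq2 size factors, filterByExpr and the fit with no replicate block. Over all genes, 1813 were called in this contrast, 1655 to 1906 with each animal left out, and 3089 with the 51 sub-regions fitted separately. With no replicate block, calls within structures went from 8980 to 5917 in STR, from 4969 to 2285 in HIP and from 135 to 19 in CB (235 by DESeq2), and SIX3 lost its calls in STR and in the cortex; no other member call changed with the block. By DESeq2 the genes called in HTHA went from 1 to 9 for age and from 15 to 27 for sex, and the member calls over all groups from 0 to 1 for age and from 0 to 2 for sex. Leaving out each animal gave 0 to 1 calls for age, 12 to 18 for sex and 41 to 53 genes (49 with all animals) higher in HTHA than in each other group. The age term in HTHA against other groups was called for 140 genes, and for 17 (without animal 6) to 269 (without animal 3) with 1 animal left out: 233 without 2, 81 without 4, 66 without 7, 78 without 8 and 84 without 10. Uncalled age differences in HTHA that changed sign ran from -0.73 to 0.025 for SIM1, -0.60 to 0.63 for FEZF1 and -0.38 to 0.29 for SIX3. Those for sex ran from -0.53 to 0.050 for SIM1 and -0.38 to 0.29 for SIX3, and the age term against other groups from -0.97 to 0.17 for OTP, -0.61 to 0.047 for NKX2-1 and -0.25 to 0.41 for SIX3. The causes were not tested. Depth limits the levels of the members in the cortex and in other groups with few reads.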
